A study of Mus musculus with 3 samples.

Results

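The TNF receptor superfamily is a family of membrane receptors that bind the trimeric ligands of the TNF family. Receptors with a death domain, such as TNFR1 and Fas, can recruit FADD and caspase-8 and start apoptosis. Many receptors of the family recruit TRAF adapters and activate NF-kappaB and MAP kinases. In macrophages exposed to LPS the receptors for TNF itself, encoded by *Tnfrsf1a* and *Tnfrsf1b*, shape the response to the TNF that the cells release. Several genes of the family are themselves targets of NF-kappaB. The 10 receptor genes described here were *Tnfrsf1a*, *Tnfrsf1b*, *Fas*, *Tnfrsf9*, *Tnfrsf10b*, *Tnfrsf12a*, *Tnfrsf14*, *Tnfrsf21*, *Tnfrsf26* and *Ltbr*, found on the array by gene name. They account for 10 of the 26840 genes with a symbol on the array and for 18 of its 56605 gene probes.

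RNA was measured in RAW cells, a virus-transformed mouse macrophage line, on 1-colour (Cy3) Agilent microarrays. Cells received LPS alone, or were first treated with strain CRL1505 of *L. rhamnosus* (CRL1505 + LPS) or strain CRL1506 of *L. plantarum* (CRL1506 + LPS), with 1 array per condition. Lactobacilli were given at 50000000 cells/mL for 24 h and washed away, and all 3 cultures received LPS at 50 ng/mL, for 12 h by the description of the design but for 3 h by that of the samples. Non-stimulated cells were not analysed here, and with no replicates none of the differences below has a replicate check, a test or a p-value.

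The arrays of LPS and CRL1506 + LPS lay on slide 1 and were scanned together, and the CRL1505 + LPS array lay alone on slide 2, scanned separately. Strain and slide therefore cannot be told apart in any comparison that uses the CRL1505 + LPS array, while CRL1506 + LPS against LPS was made within 1 slide. Between 48.5% and 55.3% of gene spots were well above background, and the 75th percentile of the signal was lowest with CRL1505 + LPS, at 517.0, against 743.1 with LPS and 697.9 with CRL1506 + LPS. All 8 macrophage markers were well above background on all 3 arrays, although with CRL1505 2 of them (*Adgre1* and *Fcgr1*, log2 ratios 2.27 and 2.401) were at least 2-fold higher and 1 (*Csf1r*, -1.47) was at least 2-fold lower than with LPS alone, and with CRL1506 *Adgre1* was just past it (a fold of 2.005). Of the markers of T cells, 3 of 5 were well above background on all arrays, as were 1 of 3 for B cells, 1 of 3 for endothelial cells and 1 of 3 for granulocytes, and none of those for NK cells, epithelial cells and fibroblasts. Among these markers of other cells, named for having passed 2-fold, *S100a8* (log2 ratio -1.31) and *Epcam* (at least 1.93 lower) were lower with CRL1505, and *Col1a2* and *Cdh5* were at least 1.81 and 1.57 higher on the log2 scale. With CRL1506, *Epcam* was lower (-1.39) and *Col1a1* at least 1.85 higher. The part of any of these in the receptor values was not tested. In RNA of whole cultures, fewer expressing cells and less RNA per cell cannot be told apart.

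Values below are normalized log2 intensities, that is the log2 of the processed signal minus the 75th percentile of the array, so that a value of 0 is the brightness of the 75th percentile spot. They allow a probe to be compared between arrays, not 1 probe with another. A gene was represented by its brightest probe, and a log2 ratio is the difference of normalized log2 intensity between 2 arrays. As a measure of spread between probes, the SD of the log2 ratio between probes of the same gene was taken. Its median was 0.23 for CRL1505 + LPS against LPS, 0.22 for CRL1506 + LPS against LPS and 0.32 between the strains. It can include differences between transcripts, and it holds no variation between arrays, slides or cultures. A difference of at least 2-fold, a log2 ratio of 1 in size, was counted as higher or lower.

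The sequences that carry the main result are those of *Tnfrsf9* and *Tnfrsf1b*, shown because both probes of the first gene gave the same pattern and those of the second did not. The first 30 bases of each 60-base probe are printed, in transcript orientation, with mm9 positions of the printed bases where the files give an unbroken match.
*Tnfrsf9* brighter probe, chr4:150320145-150320174, plus strand: ccccaaactagcctttccatttttaaaagc
*Tnfrsf9* second probe, chr4:150319101-150319130, plus strand: cgcgcacctcatccaagtctcttctaacgc
*Tnfrsf1b* brighter probe, chr4:144804334-144804363, minus strand: gcaattgcactgtgtgctggacagaattcc
*Tnfrsf1b* second probe, designed on a cDNA clone, minus strand: ttttaatgatgatggtgtctcctgtagccc
The RefSeq promoter table (GRCm38.p6) held 9 promoters for 8 of the 10 receptors, *Tnfrsf10b* and *Tnfrsf26* not being matched. The 250 bases before the downstream start of *Tnfrsf9* are shown because they alone among the 9 held the NF-kappaB consensus, marked in capitals as 2 overlapping matches from 43 to 33 bases before the start.
*Tnfrsf9* downstream promoter, chr4:150927749-150927998, plus strand: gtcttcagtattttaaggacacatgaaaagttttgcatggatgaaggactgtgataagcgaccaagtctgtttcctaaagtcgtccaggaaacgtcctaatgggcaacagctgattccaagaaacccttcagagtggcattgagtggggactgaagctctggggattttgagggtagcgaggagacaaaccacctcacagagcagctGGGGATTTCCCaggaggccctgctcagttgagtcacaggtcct
The consensus was found on either strand in 3.90% of all 32851 promoters. The same window held the AP-1 motif TGANTCA, 15 to 9 bases before the start, which 6.75% of promoters held, and the STAT motif TTCNNNGAA, 136 to 128 bases before it, which 7.02% held. TGANTCA was also in the promoter of *Fas*, and TTCNNNGAA in those of *Fas*, *Tnfrsf1a* and *Tnfrsf1b*. These are matches of letters, and no binding was measured.

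With CRL1505, 4 of the 10 receptors were at least 2-fold higher than with LPS alone and none was lower, against 9.93% higher and 8.41% lower (together 18.3%) of all 15603 genes compared. The split over all genes turned with the scaling, to 4.8% higher and 21.2% lower with spike-in scaling and to 16.0% and 5.03% with a median shift. The 4 were *Tnfrsf1b*, *Tnfrsf9*, *Tnfrsf14* and *Tnfrsf10b*, the last of which entered the comparison only through a single uneven spot on the CRL1505 + LPS array. Of the 9 receptors measured on both arrays, 3 were thus at least 2-fold higher, with a median log2 ratio of 0.17, against 0.06 over all genes measured on both. Over the 7 other scalings described with the processing, between 1 and 5 receptors were at least 2-fold higher with CRL1505 and none was lower, the count of 1 (*Tnfrsf10b*) being that of spike-in scaling. Under that scaling no receptor measured on both arrays was at least 2-fold higher, *Tnfrsf1b* coming nearest at a log2 ratio of 0.92. With CRL1506, 1 of the 9 receptors compared, *Tnfrsf9*, was at least 2-fold lower and none was higher, where 3.53% of all 16279 genes were lower and 5.67% higher (together 9.2%). The median log2 ratio of the 9 was then -0.19, against -0.06 over all genes. Both comparisons share the LPS array.

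**Figure D1:**
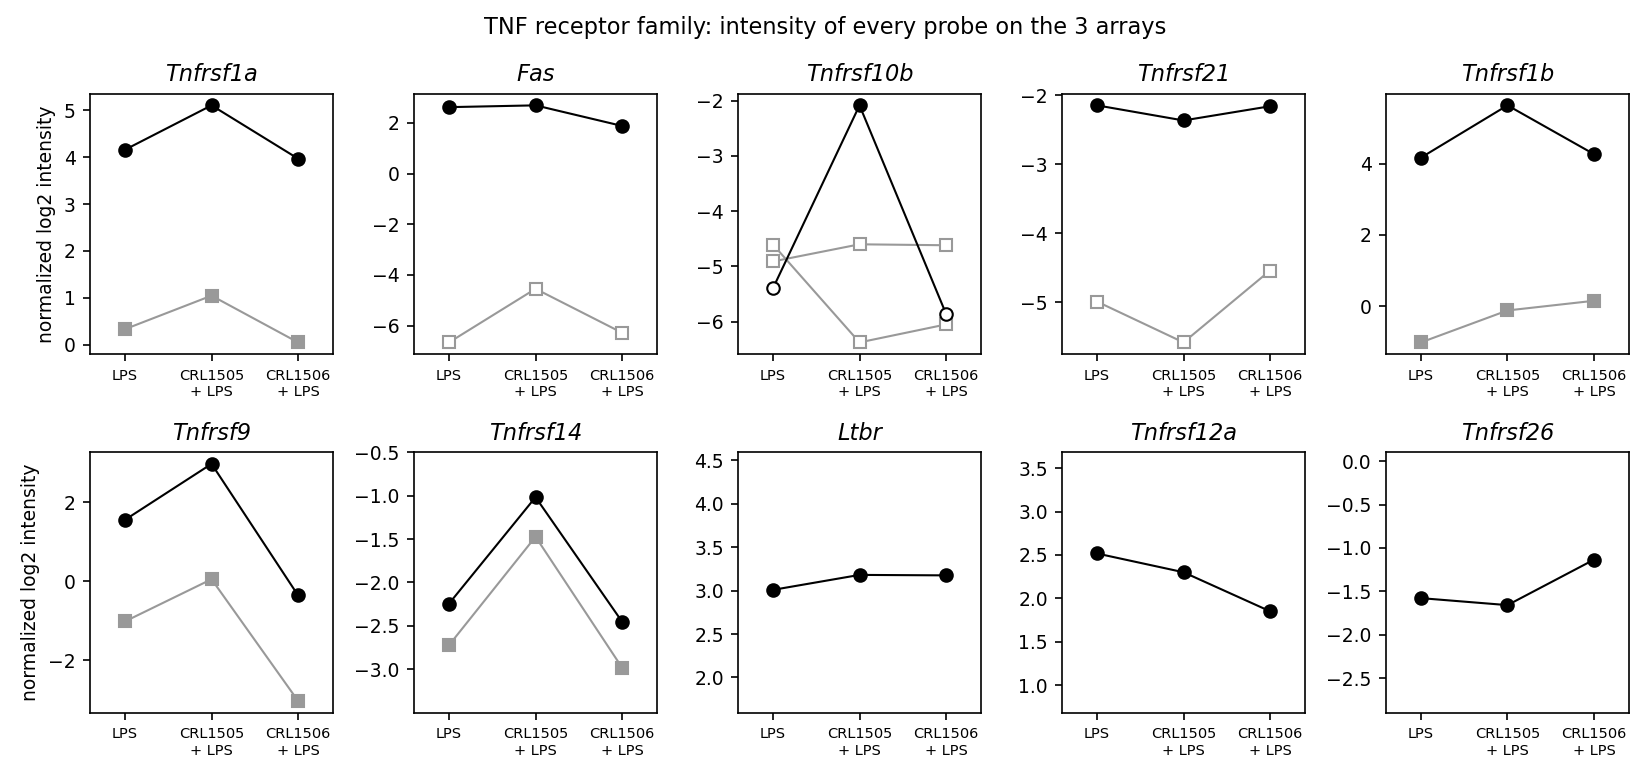
Normalized log2 intensity (vertical axis, log2 relative to the 75th percentile of the array) of all 18 probes of the 10 receptors on the 3 arrays, 1 array per point. Black circles are the brightest probe of a gene, grey squares its other probes, and open symbols were not well above background. Each panel has its own scale. Both probes of *Tnfrsf9* were highest on the CRL1505 + LPS array and lowest on the CRL1506 + LPS array, while the probes of *Tnfrsf1b* did not follow each other.

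*Tnfrsf9* encodes 4-1BB (CD137), a costimulatory receptor that signals through TRAF1 and TRAF2 and is bound by *Tnfsf9*. Its processed signal, before scaling, was 2191 with LPS, 4079 with CRL1505 + LPS and 544.7 with CRL1506 + LPS, with errors of 219, 408 and 54.9 by the model of the scanner software, which covers a single hybridisation. The normalized log2 intensity was 1.56 with LPS, 2.98 with CRL1505 + LPS and -0.36 with CRL1506 + LPS. Expression was thus higher with the first strain and lower with the second than with LPS alone. The fold was 2.68 up with CRL1505 (log2 ratio 1.42) and 3.78 down with CRL1506 (log2 ratio -1.92). The second probe of the gene, printed above, gave log2 ratios of 1.07 and -2.02. Between the strains, *Tnfrsf9* was 10.1-fold higher with CRL1505 (log2 ratio 3.34, and 3.09 by the second probe), which placed it above 99.5% of all genes compared. The log2 ratio with CRL1506 was between -2.12 and -1.79 over 7 other scalings of the arrays. That with CRL1505 was between 0.88 and 1.72 and was under 2-fold with spike-in scaling, which put the median of all genes at -0.51. Relative to the median of all genes under each scaling, it was between 1.30 and 1.40 over the 7 scalings. Scalings that shift all genes alike can hardly change this relative value, so it does not show which scaling is right.

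The genes whose pair of log2 ratios lay nearest to that of *Tnfrsf9*, by Euclidean distance among 13122 genes well above background on all 3 arrays, were *4930567H12Rik*, *Wfdc13* and *Cacna2d1*, at distances of 0.31, 0.42 and 0.46. None of them belongs to the TNF receptor family. The likeness rests on 2 ratios from 3 arrays.

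The 2 receptors for TNF itself were both highest with CRL1505 by their brighter probes. *Tnfrsf1b* encodes TNFR2, which has no death domain and is bound best by membrane TNF. Its normalized log2 intensity was 4.16 with LPS, 5.63 with CRL1505 + LPS and 4.26 with CRL1506 + LPS. The array of CRL1505 + LPS stood apart, and the other arrays differed by less than the spread between probes. The log2 ratio to LPS was 1.46 with CRL1505, a 2.76-fold difference, and 0.10 with CRL1506. Over the 7 scalings the log2 ratio with CRL1505 was between 0.92 and 1.76, under 2-fold only with spike-in scaling. The second probe, designed on a clone, went another way, with log2 ratios of 0.89 and 1.17, and the software had not found its spot on the LPS and CRL1505 + LPS arrays. The size of the *Tnfrsf1b* difference with CRL1505 therefore rests on 1 probe, and the order of the strains was reversed in the other (log2 ratio -0.27 between CRL1505 and CRL1506, against 1.37). By the mean over both probes the log2 ratio between the strains was 0.55, under 2-fold.

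*Tnfrsf1a* encodes TNFR1, the receptor with a death domain through which soluble TNF acts on most cells. Its normalized log2 intensity was 4.16 with LPS, 5.11 with CRL1505 + LPS and 3.97 with CRL1506 + LPS. With CRL1505 it was 1.93-fold higher than with LPS alone, just under the threshold (log2 ratio 0.95, and 0.71 by its second probe). With CRL1506 the log2 ratio was -0.19, within the spread between probes. Between the strains it was 2.20-fold higher with CRL1505 (log2 ratio 1.14, and 0.997 by the second probe), but this was past 2-fold in only 2 of the 7 scalings, over which it was between 0.69 and 1.63. Over the 7 scalings the log2 ratio with CRL1505 was between 0.40 and 1.24, past 2-fold in 1 of them.

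*Tnfrsf14* encodes HVEM, a receptor of LIGHT and BTLA that both costimulates and restrains lymphocytes. Its probes were dim but well above background, with normalized log2 intensities of -2.24 with LPS, -1.02 with CRL1505 + LPS and -2.45 with CRL1506 + LPS. The 2 probes moved together. The log2 ratio with CRL1505 was 1.23 by the brighter probe, whose spot was uneven on the CRL1505 + LPS array, and 1.25 by the other. With CRL1506 the log2 ratios were -0.21 and -0.26. Over the 7 scalings the log2 ratio with CRL1505 was between 0.68 and 1.52, past 2-fold in 5 of them.

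**Figure D2:**
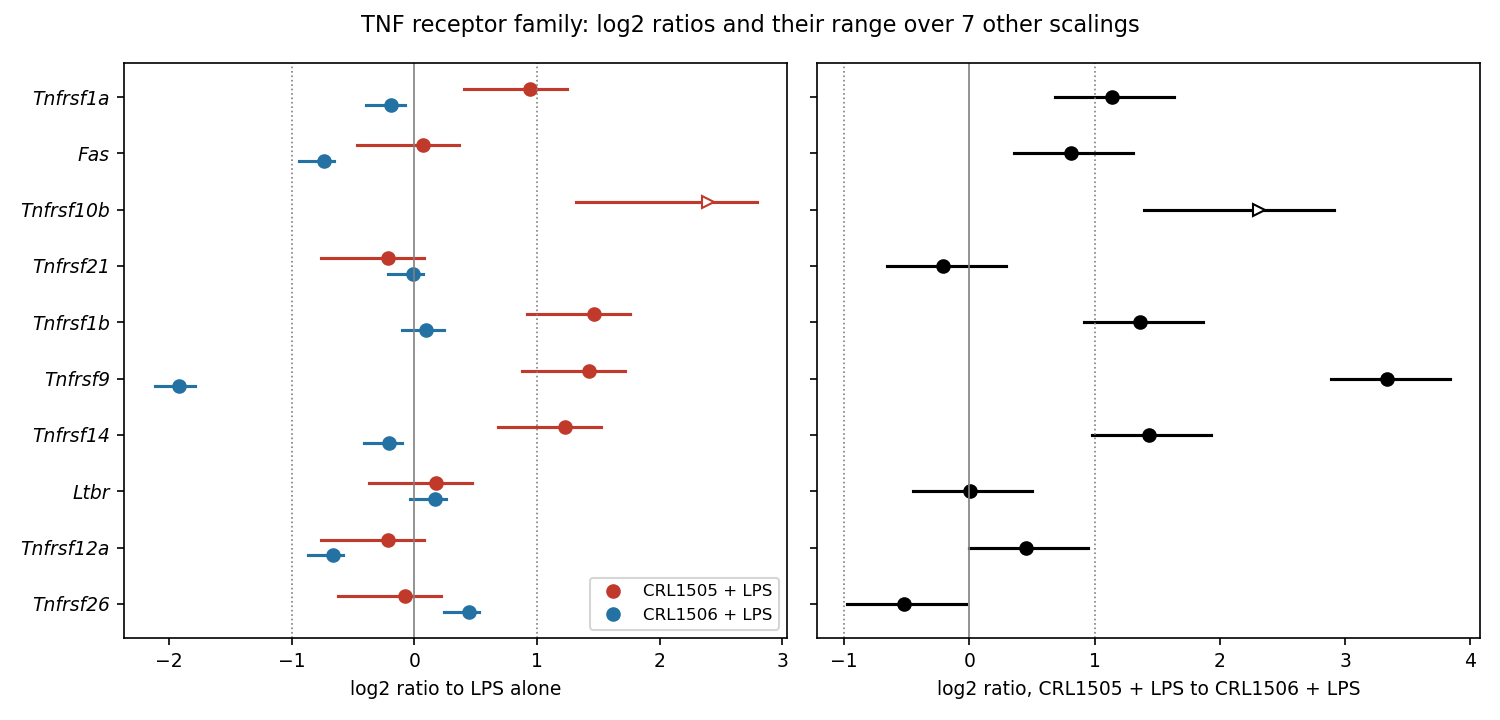
Log2 ratios of the 10 receptors (horizontal axes) to LPS alone in the left panel and between the strains in the right panel. Points are the values of 1 array against 1 array, horizontal lines the range over 7 other scalings, open triangles lower bounds, and dotted lines mark 2-fold. *Tnfrsf9* was the receptor that lay past 2-fold on opposite sides with the strains, at 1.42 and -1.92.

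Of the other death receptors, *Fas* and *Tnfrsf21* did not pass 2-fold with either strain. *Fas*, the receptor of Fas ligand, had a normalized log2 intensity of 2.62 with LPS, 2.69 with CRL1505 + LPS and 1.88 with CRL1506 + LPS. With CRL1506 its log2 ratio was -0.74, between -0.94 and -0.66 over the 7 scalings, under the 2-fold threshold but beyond the spread between probes. With CRL1505 the log2 ratio was 0.07, within that spread, and its sign changed with the scaling. A probe for a second *Fas* transcript did not rise well above background on any array. Averaging that dim probe in moved the log2 ratio of *Fas* to 1.09 with CRL1505, past 2-fold, to -0.18 with CRL1506 and to 1.27 between the strains. *Tnfrsf21* encodes DR6. Its log2 ratios to LPS were -0.22 with CRL1505 and -0.01 with CRL1506, both within the spread between probes, and its second probe was not well above background.

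*Tnfrsf10b* encodes the mouse TRAIL receptor, bound by *Tnfsf10*. The processed signal of its brightest probe was 17.7 with LPS, 121.9 with CRL1505 + LPS and 12.0 with CRL1506 + LPS, and only the CRL1505 + LPS spot was well above background. In the main scaling the gene was at least 5.26-fold higher with CRL1505 than with LPS alone (log2 bound 2.39) and at least 4.98-fold higher than with CRL1506 (log2 bound 2.32). These bounds depended on the scaling, from 1.31 to 2.79 and from 1.40 to 2.91 on the log2 scale. The mean over the 3 probes gave lower bounds of only 0.13 and 0.05, which cannot place the gene under or past 2-fold. That spot was uneven, its mean pixel signal lying 0.29 above its median on the log2 scale, and the software had not found it at its place. On none of the arrays were the 2 other probes of the gene well above background. Without uneven spots the gene gave no ratio, and 3 receptors remained at least 2-fold higher with CRL1505.

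Of the receptors without a death domain that are best known outside lymphocytes, *Ltbr* and *Tnfrsf12a* did not pass 2-fold with either strain. *Ltbr*, the lymphotoxin beta receptor, which drives the alternative NF-kappaB pathway, had normalized log2 intensities of 3.01, 3.18 and 3.17 with LPS, CRL1505 + LPS and CRL1506 + LPS. Its log2 ratio was 0.17 with either strain, less than the spread between probes. *Tnfrsf12a* encodes Fn14, the receptor of TWEAK, and was 2.52 with LPS, 2.30 with CRL1505 + LPS and 1.85 with CRL1506 + LPS on the same scale. Its log2 ratio was -0.66 with CRL1506, between -0.87 and -0.58 over the 7 scalings, and -0.22 with CRL1505. *Tnfrsf26* belongs to a mouse gene cluster that also holds the decoy TRAIL receptors. Its log2 ratio was -0.08 with CRL1505 and 0.44 with CRL1506, a 1.36-fold difference that did not pass 2-fold but kept its sign over the 7 scalings (0.24 to 0.53).

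**Figure D3:**
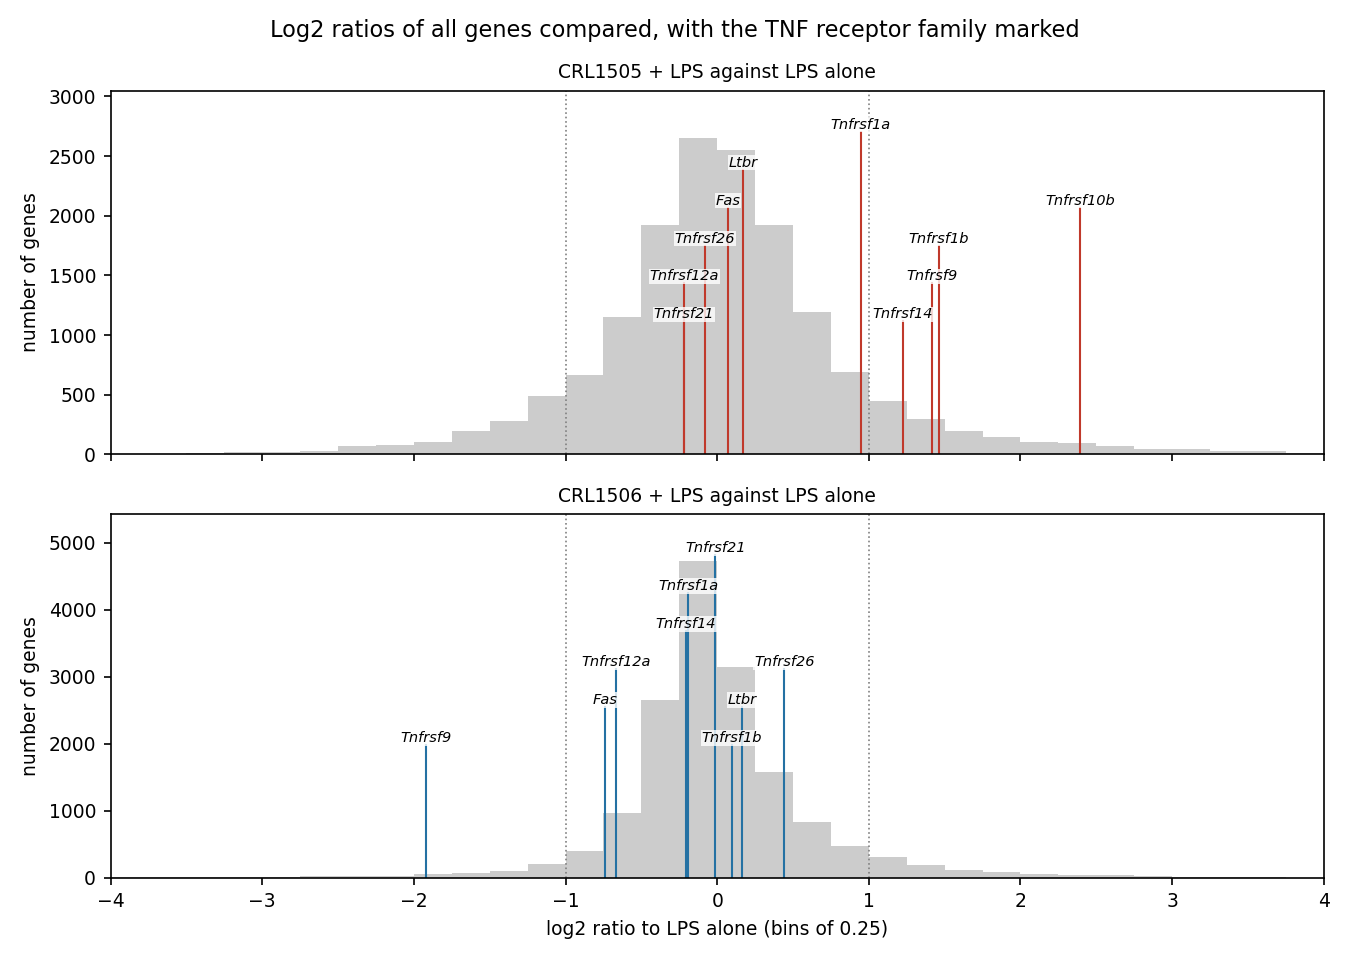
Number of genes (vertical axis) by log2 ratio to LPS alone (horizontal axis, bins of 0.25) for all 15603 genes compared with CRL1505 and all 16279 compared with CRL1506, with the receptors as coloured lines whose height carries no value. Ratios beyond 4 on either side are not drawn, and dotted lines mark 2-fold. The receptors spread from the centre to the right with CRL1505, and with CRL1506 *Tnfrsf9* lay apart on the left.

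Set directly against each other, the strains differed by at least 2-fold in 5 receptors, all higher with CRL1505, while 9.02% of all 15780 genes were higher and 7.47% lower (together 16.5%). The 5 were *Tnfrsf9*, *Tnfrsf14*, *Tnfrsf1b*, *Tnfrsf1a* and, by its single uneven spot, *Tnfrsf10b*. The median log2 ratio of the 9 receptors measured on both arrays was 0.81, against 0.09 over all genes so measured. *Fas* had a log2 ratio of 0.81 and *Tnfrsf26* of -0.52, both below the threshold, and over the 7 scalings 2 to 6 receptors were past it. The count of 2 was that of spike-in scaling, for *Tnfrsf9* and *Tnfrsf10b*. By the mean over probes, 4 were past it, *Tnfrsf9*, *Tnfrsf14*, *Tnfrsf1a* and *Fas*.

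The 3 receptors at least 2-fold higher with CRL1505 on probes measured on both arrays all had probes on chromosome 4 of mm9, which was seen after the values. The share of all genes on that chromosome past 2-fold was not taken, and a link with position was not tested. *Tnfrsf10b* and the further receptors *Cd40*, *Tnfrsf11a* and *Tnfrsf19*, also at least 2-fold higher with CRL1505, had probes on other chromosomes. The probe of *Tnfrsf9* lay 5.52 Mb from that of *Tnfrsf1b* and 3.98 Mb from that of *Tnfrsf14*. *Tnfrsf4*, another receptor of the family on that chromosome, named after its values were seen, had a log2 ratio of 0.04 with CRL1505 and 0.72 with CRL1506. The probes of *Ltbr* and *Tnfrsf1a* were only 55.7 kb apart on chromosome 6, yet their log2 ratios with CRL1505 were 0.17 and 0.95.

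Beyond the 10 receptors, 8 of 18 further receptors of the family were well above background. With CRL1505, 3 of these 8 were at least 2-fold higher and none was lower, beside 9.93% and 8.41% of all genes, and with CRL1506 none differed by 2-fold, beside 9.2% of all genes. *Cd40*, the costimulatory receptor of antigen-presenting cells, had log2 ratios of 1.495 with CRL1505 and 0.15 with CRL1506. *Tnfrsf11a*, which encodes RANK, the receptor for osteoclast differentiation, had 1.34 and -0.40, but its 3 probes ranged from 0.42 to 1.34 with CRL1505. *Tnfrsf19*, which encodes TROY, had 2.57 and 0.44, with 1 of its 3 probes giving a ratio for CRL1505. The median log2 ratio of the 8 was 0.05 with CRL1505 and 0.15 with CRL1506, against 0.01 and -0.06 over all genes.

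Of the ligands of the family, 17 of the 18 listed were found by symbol and 11 were compared. With CRL1505, 3 were at least 2-fold higher and 1 was lower, beside 18.3% of all genes past 2-fold. With CRL1506 none of the ligands was placed past 2-fold, beside 9.2%. For 3 ligands with CRL1505 and 1 with CRL1506 (*Tnfsf14*, at least 0.74 lower) there was only a lower bound. These bounds, all under 2-fold, cannot place the genes under or past it. *Tnfsf9*, the ligand of 4-1BB, had log2 ratios of 1.13 with CRL1505 and 0.31 with CRL1506, where its receptor had 1.42 and -1.92. *Tnfsf10*, which encodes TRAIL, had 2.43 and 0.01 by its brightest probe but 0.04 with CRL1505 by its other probe. *Tnfsf15*, which encodes TL1A, had 1.20 and -0.02. *Ltb*, which encodes the lymphotoxin beta that engages *Ltbr*, had -1.10 and -0.74, the second under 2-fold. The median of the ligands, bounds included, was -0.09 with CRL1505 and -0.02 with CRL1506, against 0.01 and -0.06 over all genes.

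**Figure D4:**
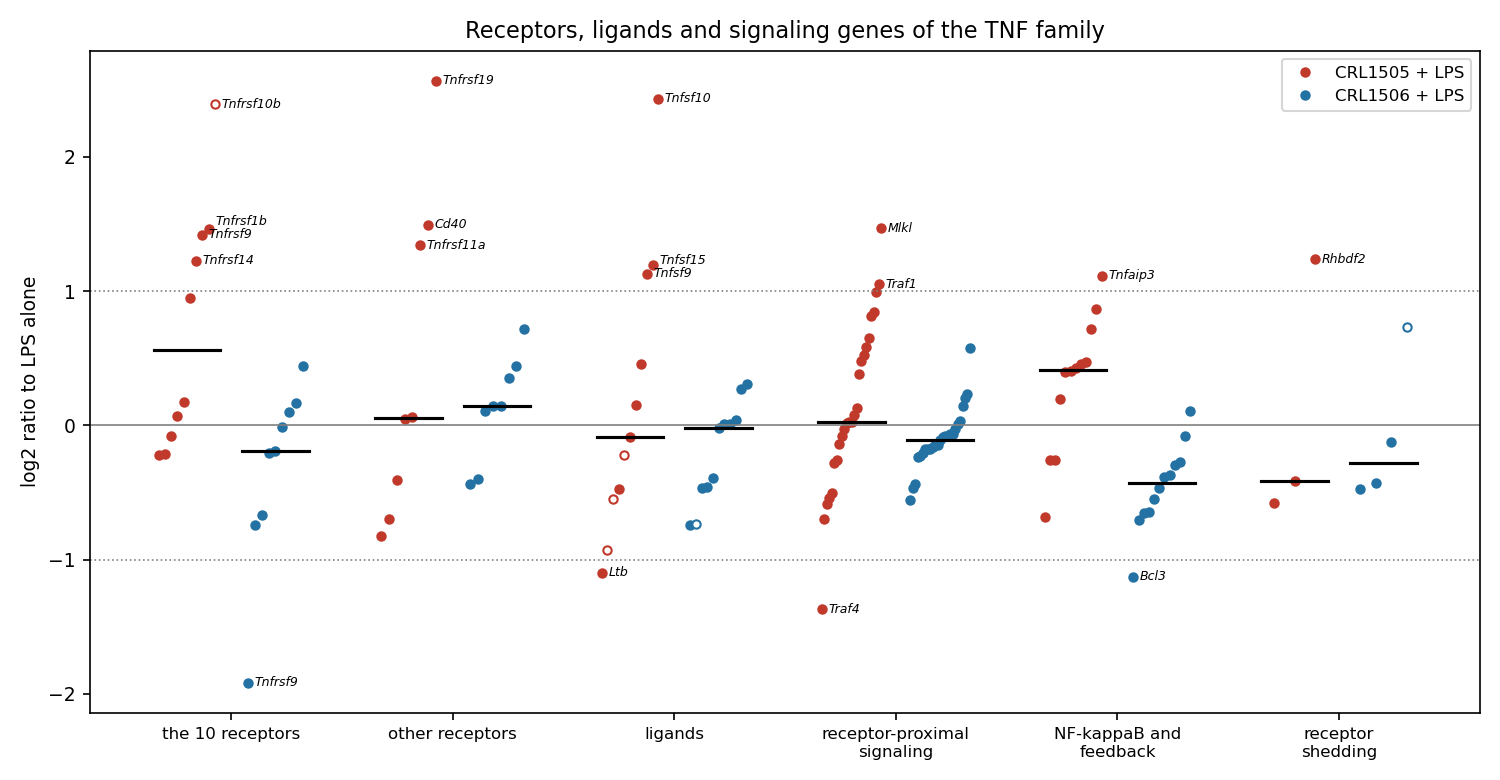
Log2 ratio to LPS alone (vertical axis) of each gene compared in 6 lists of the TNF family pathway, for CRL1505 + LPS (red) and CRL1506 + LPS (blue), 1 array against 1 array per point. Open circles are lower bounds on the size of a difference, black bars medians of the genes compared, bounds included, and dotted lines 2-fold, and genes past 2-fold are named. With CRL1506, *Tnfrsf9* and *Bcl3* were the genes in these lists placed past 2-fold, both lower.

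All 25 genes of receptor-proximal signaling were well above background on every array. With CRL1505, 2 were at least 2-fold higher and 1 was lower, a share of 12% that was below the 18.3% of all genes, and with CRL1506 none differed by 2-fold, beside 9.2% of all genes. *Mlkl*, the effector of necroptosis, had log2 ratios of 1.47 with CRL1505 and 0.57 with CRL1506. *Traf1*, an adapter of 4-1BB and TNFR2 that is itself an NF-kappaB target, had 1.05 and 0.14. *Traf4*, an adapter of the same family, had -1.37 and 0.01. The median of the 25 was 0.03 with CRL1505 and -0.11 with CRL1506, where all genes had 0.01 and -0.06.

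The 12 NF-kappaB subunits and feedback genes were likewise all well above background. *Tnfaip3*, which encodes A20, the ubiquitin-editing inhibitor of TNF signaling, was the only one at least 2-fold higher with CRL1505 (log2 ratio 1.11, and -0.29 with CRL1506). *Bcl3*, an atypical inhibitor of kappaB that binds p50 and p52, was the only one at least 2-fold lower with CRL1506 (log2 ratio -1.13, and 0.19 with CRL1505). These counts of 1 in 12 (8.33%) stood beside 18.3% of all genes past 2-fold with CRL1505 and 9.2% with CRL1506. The median of the list was 0.41 with CRL1505 and -0.43 with CRL1506, against 0.01 and -0.06 over all genes. Between the strains, 5 were at least 2-fold higher with CRL1505 and none was lower, beside 9.02% and 7.47% of all genes, and the median log2 ratio was 0.83, against 0.03. All 12 ratios were above 0, but *Relb* (0.02), *Tnip1* (0.12) and *Nfkbie* (0.29) lay within the spread between probes, these 3 being named after their values were seen. Over the 7 scalings, 9 to 12 ratios were above 0, and 0 to 8 genes were at least 2-fold higher with CRL1505.

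Receptors of the family are cut from the cell surface by ADAM17, a protease that the iRhom proteins bring to the surface. Of the 5 genes listed for receptor shedding, 3 were compared for CRL1505 and 4 for CRL1506. *Rhbdf2*, which encodes iRhom2, was the only one placed past 2-fold, with log2 ratios of 1.24 with CRL1505 and -0.13 with CRL1506, where 18.3% and 9.2% of all genes were past 2-fold. *Timp3* was at least 0.73 higher with CRL1506 on the log2 scale, a bound that cannot place it under or past 2-fold. The counts of these lists moved with the scaling. Over the 7 scalings, 1 to 3 of the further receptors, 1 to 3 ligands, 0 to 5 genes of receptor-proximal signaling, 0 to 3 of the NF-kappaB list and 0 to 1 of the shedding list were at least 2-fold higher with CRL1505, and 0 to 2, 0 to 4, 1 to 5, 0 to 1 and 0 to 1 were at least 2-fold lower. With CRL1506 none of the lists beyond the 10 receptors held a gene counted as at least 2-fold higher under any of the 7 scalings. Counted as at least 2-fold lower with CRL1506 were 0 to 1 ligands, 1 gene of the NF-kappaB list under each scaling, and none of the other lists.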

How the data were processed

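RNA of RAW macrophages was hybridised to SurePrint G3 Mouse GE arrays, 1 per condition. The authors deposited for each array processed signals from Feature Extraction (12.0.3.1 by the file headers), an intensity with background subtracted and spatial trends removed but not normalized between arrays. They also deposited a table of log2 values normalized between arrays, used here as an alternative.

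Each array was scaled by subtracting the 75th percentile of its gene spots from the log2 processed signals. Outlier spots by the software's marks were dropped, and the brightest probe without such a spot stood for its gene. Probes well above background on neither array were left out. Where 1 side was dim, the ratio was taken as a lower bound against the lowest signal well above background or the spot's own, whichever was higher. Genes were counted at 2-fold, the threshold of the study's methods. Its t-test could not be used without replicates, and the number of arrays limits the precision.

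The receptors, lists and comparisons were chosen with earlier results of these data known. Named were the 10 receptors with all their probes, the genes of each list at least 2-fold from LPS with either strain (at most 4 per list), and the 3 genes nearest to the receptor with the largest ratio to LPS among those well above background on all 3 arrays. Lists were read by counts and medians beside those of all genes.

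The alternatives were 7 other scalings (median, 75th percentile of the probes detected throughout, quantile, cyclic loess, spike-in probes, normexp with an offset of 50, and the deposited table), no filter on dim probes, only probes detected on all arrays, the mean over probes, outlier spots kept, uneven spots left out (a log2 ratio of mean to median pixel signal over 0.2), and a 1.5-fold threshold. Computation used R 4.3.3 with limma 3.58.1, Python 3.11.15, NumPy 2.4.6 and pandas 2.3.3. The procedure was tested on simulated data, copies of the LPS array with shifts in brightness, noise between spots and known changes in bright genes. The simulation held no variation between slides or cultures and no changes in dim genes, so it covered the computation and not these limits. Probes carry the mm9 positions of the files, and promoters the GRCm38.p6 positions of RefSeq.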

Additional observations from a re-analysis of the deposited data

Results flagged for a closer look

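*Tnfrsf9* stood out because it was past 2-fold in opposite directions with the strains. Its log2 ratio to LPS alone was 1.42 with CRL1505 and -1.92 with CRL1506. Of the 13123 genes well above background on every array, 29 (0.22%) were past 2-fold higher with CRL1505 and lower with CRL1506. The reverse, lower with CRL1505 and higher with CRL1506, was found for 7 (0.05%). With 1 array per condition the difference between the strains was not tested. Both ratios of *Tnfrsf9* share the LPS array, and the CRL1505 + LPS array lay on a slide of its own.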

How the results depend on the processing

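The count of receptors past 2-fold stayed within 1.5 times its main value in 36 of 39 cases. Spike-in scaling left 1 receptor with CRL1505 against LPS (*Tnfrsf10b*, which had only a lower bound) and 2 between the strains (*Tnfrsf9* and *Tnfrsf10b*), and a 1.5-fold threshold gave 3, all lower, with CRL1506 against LPS. Over 14 settings, between 1 and 5 receptors were higher with CRL1505, between 1 and 3 were lower with CRL1506, and between 2 and 6 were higher with CRL1505 than with CRL1506. Of 344 log2 ratios of single receptors, 281 moved by no more than the spread between probes and 63 moved by more. No ratio past 2-fold changed sign. Many of the 281 could not have moved, since no receptor probe had an outlier spot. The settings for dim probes likewise could not change a ratio measured on both arrays. Some of the 36 unmoved counts were fixed in the same way. The share of all genes past 2-fold was 11.1% with the deposited table and 36.3% at 1.5-fold for CRL1505 against LPS. For CRL1506 against LPS it was 4.66% with normexp, 4.35% with the deposited table, 5.79% over probes detected on all arrays and 20.9% at 1.5-fold. Between the strains it was 26.5% with a median shift (23.6% higher and 2.91% lower), 10% with normexp, 9.49% with the deposited table and 36.3% at 1.5-fold. Spike-in scaling turned that split, to 4.62% higher and 18.2% lower. The mean over probes kept the count of 4 with CRL1505 but exchanged *Tnfrsf10b*, whose lower bound then no longer reached 2-fold, for *Fas*. The cause of these shifts was not tested. Over the 7 scalings, the median log2 ratio of all genes was between -0.51 and 0.33 with CRL1505, between -0.26 and 0.02 with CRL1506, and between -0.42 and 0.57 between the strains. No paired analysis was possible because each condition had 1 array, and for the same reason no replicate could be left out. The dim probes of *Tnfrsf10b*, *Fas* and *Tnfrsf21* limit what can be said of them to signal not well above background.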
